A study of Mus musculus with 46 samples.

Results

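The 9 genes studied here code for proteins that carry, and end, the signal of Fc receptors: the kinase genes Syk, Lyn and Fgr, the phospholipase gene Plcg2, the adaptor gene Card9, the exchange factor gene Vav1, the lipid kinase gene Pik3cd and the phosphatase genes Inpp5d and Ptpn6. These 9 genes are among the 46264 in the table, and all 9 passed the low-count filter in every comparison. The series used a mouse model of mucous membrane pemphigoid with antibodies to laminin 332, a protein of the basement membrane, and mice were given intravenous immunoglobulin (IVIG) or phosphate-buffered saline (PBS). By label there were 10 blood libraries (5 IVIG, 5 PBS), 10 neutrophil libraries (5 and 5), 8 monocyte libraries (3 and 5) and 6 skin libraries (3 and 3), and 12 libraries labelled Ics, 4 each at 0 h (unstimulated, per the titles) and at 3 h and 6 h of stimulation with what the titles call Ics. The extraction protocol names bone marrow derived neutrophils and monocytes and whole blood. Strain, sex, age, dose and the meaning of Ics are not given in the sources used here, nor is whether libraries came from separate animals. P-values therefore measure only the spread between these libraries, which may be technical.

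When an immune complex draws Fc receptors together, Src family kinases such as Lyn and Fgr phosphorylate the ITAM motifs of the receptor chains, and Syk docks on them. Syk then acts on Plcg2 (phospholipase C gamma 2), which releases calcium and activates protein kinase C, on Vav1, which switches on Rac and so the oxidative burst, and on the class I phosphoinositide 3-kinases, of which Pik3cd codes a catalytic subunit of leukocytes. Card9 passes the signal on to NF-kB together with Bcl10 and Malt1. Inpp5d (SHIP1) removes a phosphate from the lipid product of these kinases, and Ptpn6 (SHP-1) is a tyrosine phosphatase. Both are drawn to receptors with ITIM motifs and limit the response.

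In GRCm38 (GENCODE vM21) Syk spans chr13:52583173-52648792, Lyn chr4:3678115-3813122, Fgr chr4:132974095-133001910, Plcg2 chr8:117498291-117635142 and Card9 chr2:26352176-26360918. Inpp5d spans chr1:87620312-87720507, Ptpn6 chr6:124720707-124738714, Vav1 chr17:57279100-57328031 and Pik3cd chr4:149649168-149702571. RefSeq promoters (GRCm38.p6, 250 bases before to 50 after a start) were held for 8 of the 9 genes, with 11 starts. The letters GAGGAA, the core bound by the myeloid factor PU.1, were searched on both strands. They lay in 4 of the 11 windows, 1 each of Inpp5d, Fgr, Syk and Vav1, against 28.1% of 32544 promoters of that length. For TGANTCA (AP-1), TGACGTCA (CRE) and an NF-kB motif, 0 of the 11 windows held a match, against 7.79%, 1.80% and 1.47% of all promoters. The E-box CACGTG was in 1 of them, against 7.17%. A match is a description of letters and no binding was measured. Shown are 100 bases before to 30 after the start for 3 genes that rose together at 3 h of the Ics experiment and hold the core in this stretch, and for Card9, which fell most. No core lay in the windows of Ptpn6, which rose, or of Card9, Plcg2 and Pik3cd, which fell. The upstream start of Syk held none either. Whether the core goes with the change was not tested. Capitals mark GAGGAA or its reverse complement TTCCTC. The windows are chr1:87620212-87620341 (Inpp5d, + strand), chr17:57279000-57279129 (Vav1, + strand), chr13:52596782-52596911 (the downstream start of Syk, + strand) and chr2:26360880-26361009 (Card9, - strand), each 5′ to 3′.
Inpp5d: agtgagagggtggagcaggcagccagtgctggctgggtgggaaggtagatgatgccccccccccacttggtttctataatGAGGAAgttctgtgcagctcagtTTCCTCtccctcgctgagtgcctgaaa
Vav1: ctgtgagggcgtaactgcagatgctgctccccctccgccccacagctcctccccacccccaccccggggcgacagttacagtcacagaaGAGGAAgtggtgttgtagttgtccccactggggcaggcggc
Syk: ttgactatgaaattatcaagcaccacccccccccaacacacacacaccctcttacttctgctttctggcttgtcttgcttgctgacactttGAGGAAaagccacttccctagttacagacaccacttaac
Card9: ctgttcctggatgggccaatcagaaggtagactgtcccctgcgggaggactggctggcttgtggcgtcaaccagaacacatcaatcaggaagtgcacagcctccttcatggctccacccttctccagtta
The core begins at -20 and 3 from the start in Inpp5d, at -11 in Vav1 and at -9 in Syk.

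Levels are CPM (estimated counts scaled to a common library size), scaled by TMM (edgeR's factors for differences in composition) within each fit, so that levels of the Ics fit and of the tissue fit are not set beside each other. Library totals were 18965431 to 43176537 counts in the groups used below. Haemoglobin took 89.2 to 93.9% of the counts in the blood libraries whose markers matched, which left 2078767 to 3240452 counts for all other nuclear genes. Classes were set by marker genes over all counts, with limits from an earlier look at these data. Blood was haemoglobin above 10%, skin Krt5 plus Krt14 above 100 CPM and neutrophil S100a8 plus S100a9 above 10000 CPM. Monocyte was the class left over, with no monocyte marker required. By these classes, 25 of the 34 libraries outside the Ics experiment matched their label. Of the other 9, the blood label sat on 1 neutrophil, 1 monocyte and 2 skin profiles, the neutrophil and skin labels on 2 blood profiles each, and the monocyte label on 1 neutrophil profile. Placing the deposited names in plain character order matched 34 of 34 markers. It moved 29 names, changed the treatment of 22 and moved 0 of the Ics names. The deposited names were kept, so every IVIG comparison below rests on doubtful labels. The title series and number belong to the same names, so every statement and fit below that uses them is as doubtful. Mitochondrially coded counts were 30.4 to 82.7% in 4 of the 7 matched monocyte libraries and 3.68 to 17.4% in the other 3. These counts enter the totals and so lower the S100a8 plus S100a9 value. It was 8070 CPM in monocyte PBS replicate 2, at a mitochondrial share of 45.5%. The 12 Ics libraries all fell in the neutrophil marker class.

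In the Ics experiment all 9 genes differed between 0 and 3 h: 6 rose and 3 fell. The background was high, since 54.4% of the 14996 genes tested passed the same limit (adjusted p under 0.05, edgeR quasi-likelihood test), 4034 upward and 4129 downward. The median log2 change was 0.42 over the 9 genes and -0.06 over all genes. The genes that rose were both phosphatase genes, the 3 kinase genes and Vav1, and those that fell were Card9, Plcg2 and, narrowly, Pik3cd. For 8 of the 9, all 4 libraries at 3 h lay outside the range of those at 0 h, as they did for 49.7% of all genes tested; the exception was Pik3cd.

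**Figure D1:**
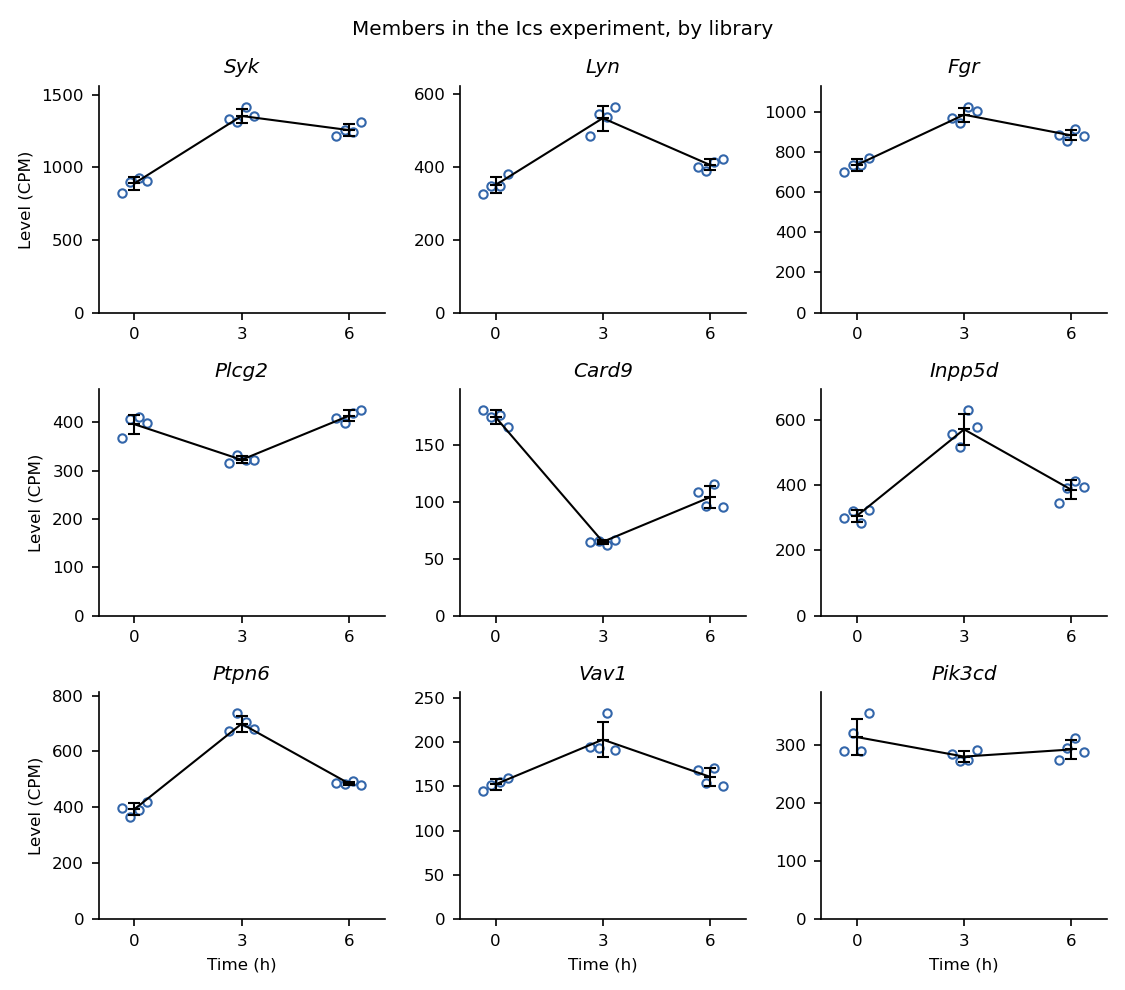
Level of each gene (CPM, TMM scale of the Ics fit, axis from 0) at 0, 3 and 6 h; circles are the 4 libraries of each time, the line joins their means, and bars are SD. Card9 lies at 166 to 181 CPM at 0 h and at 62.5 to 66.5 CPM at 3 h, while Inpp5d and Ptpn6 peak there.

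The Src family kinase gene Lyn stood at 327, 349, 347 and 380.3 CPM at 0 h, at 486, 547, 538 and 566 CPM at 3 h and at 399, 388, 414 and 422 CPM at 6 h. The 3 sets did not overlap: Lyn was highest at 3 h and in between at 6 h. The log2 change at 3 h was 0.61 ± 0.0589 (± SE, 4 libraries a group), a 1.52-fold change (adjusted p = 6.04e-07, edgeR). At 6 h it was still up by 0.21 ± 0.0587 against 0 h (adjusted p = 0.00645, edgeR), and with library totals alone as the scale this was 0.05 (adjusted p = 0.442). Of all genes tested, 55.3% had no overlap between 6 and 0 h and 37.1% none between 6 and 3 h. Fgr, which codes the Src family kinase found mainly in myeloid cells, went from 700.1, 735, 735 and 772 CPM to 968, 947, 1026 and 1003 CPM at 3 h and 885, 853, 913 and 881 CPM at 6 h. It rose by 0.42 ± 0.0461 at 3 h (adjusted p = 2.13e-06) and by 0.26 ± 0.0461 at 6 h (adjusted p = 1.86e-04, both edgeR).

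Syk, the kinase gene whose product docks on phosphorylated ITAMs, was at 822, 898, 927 and 909 CPM at 0 h. At 3 h its levels were 1329, 1309.9, 1417 and 1354 CPM, and at 6 h 1216, 1254, 1242 and 1309 CPM. All 8 stimulated libraries were above all 4 at 0 h. The rise was 0.61 ± 0.0491 at 3 h (adjusted p = 9.01e-08) and 0.50 ± 0.0490 at 6 h (adjusted p = 6.54e-07, edgeR). Of the 9 genes Syk had the largest rise at 6 h, and its change from 3 to 6 h was -0.11 ± 0.0489 (adjusted p = 0.0943, edgeR), which missed the limit.

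Downstream of Syk the genes went different ways. Plcg2 stood at 368 to 411 CPM at 0 h, 315 to 332 CPM at 3 h and 399 to 426 CPM at 6 h, so that only the 3 h libraries were apart. It fell by 0.30 ± 0.0466 at 3 h (adjusted p = 8.10e-05, edgeR) and rose by 0.36 ± 0.0466 from 3 to 6 h (adjusted p = 2.65e-05, edgeR). Its 6 h change against 0 h was 0.06 ± 0.0465 (adjusted p = 0.269, edgeR), and with library totals alone it was a called fall (-0.10, adjusted p = 0.0460, edgeR). Vav1 had the reverse course, with 144, 151, 154 and 159 CPM at 0 h, 194, 194, 233 and 191 CPM at 3 h and 169, 154, 171 and 150.1 CPM at 6 h. Its 3 h levels were above both other times, by 0.41 ± 0.0691 against 0 h (adjusted p = 1.41e-04, edgeR), with 1 library, replicate 3, well above the other 3. At 6 h Vav1 differed from 0 h by 0.08 ± 0.0691 (adjusted p = 0.347, edgeR), and by -0.08 with library totals alone.

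Pik3cd changed least at 3 h. Its levels were 289, 319, 288 and 354 CPM at 0 h, 283, 271, 273 and 289.8 CPM at 3 h and 273, 294, 312 and 287 CPM at 6 h, and the times overlapped. The fall at 3 h was 0.16 ± 0.0661 (adjusted p = 0.0492, edgeR). It was lost with DESeq2 (adjusted p = 0.0982), with RLE scaling, without the expression filter, and on leaving out, one at a time, 0 h replicate 2 or 4 or any library of 3 or 6 h (-0.20 to -0.11 over all 12 such fits), so it is given as a borderline value. At 6 h the change was -0.10 ± 0.0661 (adjusted p = 0.200, edgeR); library totals alone made it -0.26 (adjusted p = 0.00255).

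Card9 had the largest change of the 9 genes. It was at 181, 174, 176 and 166 CPM at 0 h, 65.1, 65.6, 62.5 and 66.5 CPM at 3 h and 109, 96.1, 115 and 95.6 CPM at 6 h. The 3 sets of libraries did not overlap, and the 4 at 3 h lay within a few CPM of each other. Card9 fell by 1.42 ± 0.0635 at 3 h, a 2.68-fold decrease (adjusted p = 1.50e-10, edgeR). It rose by 0.68 ± 0.0630 from 3 to 6 h (adjusted p = 1.04e-06, edgeR) and at 6 h remained 0.74 ± 0.0622 below 0 h (adjusted p = 1.16e-07, edgeR).

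The phosphatase genes rose most at 3 h. Inpp5d was at 298, 319.9, 283 and 322 CPM at 0 h, 555, 518, 629.7 and 577 CPM at 3 h and 344, 391, 413 and 395 CPM at 6 h. That is a rise of 0.90 ± 0.0712 at 3 h, or 1.86-fold (adjusted p = 7.08e-08, edgeR), of which 0.34 ± 0.0708 was left at 6 h (adjusted p = 9.16e-04, edgeR). Ptpn6 was at 398, 366, 391 and 419 CPM at 0 h, 672, 738, 705 and 682 CPM at 3 h and 486, 483, 494 and 480.2 CPM at 6 h. It rose by 0.83 ± 0.0496 at 3 h, or 1.78-fold (adjusted p = 3.34e-09), and 0.30 ± 0.0493 was left at 6 h (adjusted p = 9.37e-05, both edgeR). For both genes the 3 times did not overlap.

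At 6 h against 0 h, 5 of the 9 genes had risen (Syk, Lyn, Fgr, Inpp5d, Ptpn6), 1 had fallen (Card9) and 3 did not pass, where 60% of all genes passed (4439 up, 4560 down). From 3 to 6 h, 2 rose (Plcg2, Card9), 5 fell (Lyn, Fgr, Inpp5d, Ptpn6, Vav1) and 2 did not pass, where 40.8% of all genes passed (3067 up, 3050 down). The 3 h to 6 h fall of Fgr, 0.16 ± 0.0461 (adjusted p = 0.0129, edgeR), was lost with library totals alone, without the expression filter, and on leaving out, one at a time, 3 h replicate 1, 3 or 4 or 6 h replicate 1 or 2 (-0.18 to -0.11 over all 12 such fits). These 3 comparisons share libraries, so their calls are not independent.

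**Figure D2:**
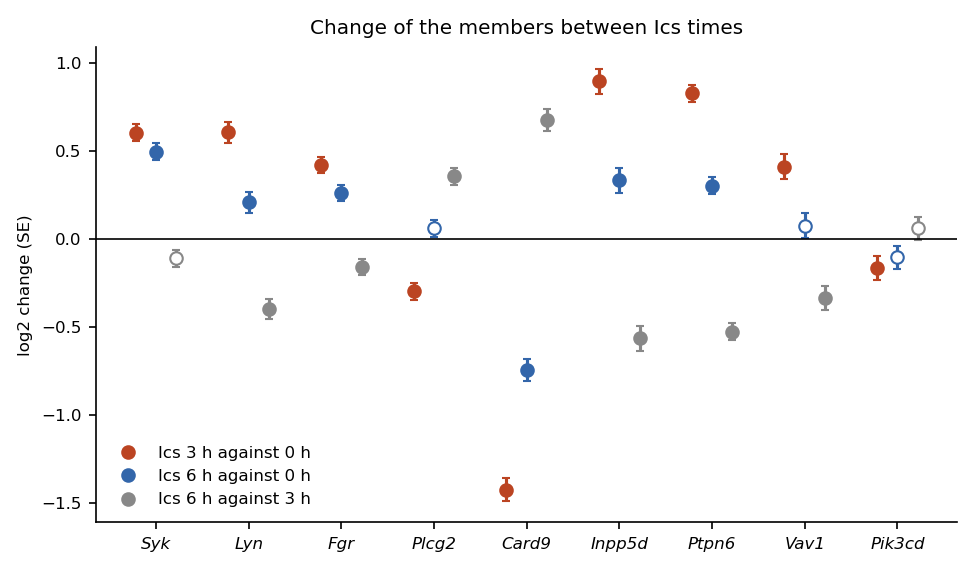
log2 change of each gene between Ics times (edgeR, bars are SE); filled circles passed adjusted p under 0.05, open circles did not. Card9 lies lowest at -1.42 for 3 h against 0 h, and Inpp5d highest at 0.90.

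With library totals alone, 2693 genes rose and 6351 fell at 3 h, 3455 and 5785 at 6 h against 0 h, and 3904 and 2427 at 6 h against 3 h, and the median log2 change of all genes was -0.30, -0.22 and 0.05. All 9 genes then kept their direction and their call at 3 h, with a median of 0.18 in place of 0.42. At 6 h against 0 h, 4 rose and 3 fell. Ratios of counts within a library need no scale. The ratio of Card9 to Syk was 0.182 to 0.220 at 0 h, 0.0441 to 0.0501 at 3 h and 0.0730 to 0.0929 at 6 h. Inpp5d to Ptpn6 was 0.724 to 0.874, 0.702 to 0.893 and 0.708 to 0.836 at the same times, so these phosphatase genes overlapped in ratio while both rose. Summed neutrophil markers (7 genes) were 69890.3 to 75928 CPM at 0 h, 64089 to 78269.7 at 3 h and 47374 to 53339 at 6 h, and summed monocyte markers (8 genes) 747 to 810.5, 1055 to 1094 and 985 to 1125. The skin markers Krt5 and Krt14 were at 0 in all 12 libraries. The part of these shifts in the changes above was not tested; in bulk RNA, fewer cells of a type and less RNA per cell cannot be told apart.

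Per kilobase of merged exon, the highest of the 9 genes at 0 h was Fgr, at 181 to 199.8 CPM per kb, followed by Ptpn6 at 131 to 149.6, and the lowest was Inpp5d at 37.2 to 42.4. Lyn stood at 80.3 to 93.4 CPM per kb. Zap70, the T cell counterpart of Syk, was at 0.0123 to 0.106 CPM per kb against 87.8 to 99.0 for Syk. Plcg1, the relative of Plcg2 that T cells use, was at 0.166 to 0.246 CPM per kb. The genes of the 3 other class I catalytic subunits rose: at 3 h Pik3cg rose by 0.99, Pik3ca by 0.80 and Pik3cb by 0.49. The SHP-2 gene Ptpn11, related to Ptpn6, rose by 1.02. Vav3 was 0.15 higher at 3 h, a call that library totals alone turned to -0.09 without a call. Vav2, called at 1.03, was not called on that scale.

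Other genes of the pathway were counted over 13 lists with 103 genes, of which 96 were tested. At 3 h 50 rose, 24 fell and 22 did not pass, with a median log2 change of 0.26; with library totals alone 32 rose, 35 fell and 29 did not. Changes of single genes given below kept direction and call on that scale unless stated. The counts of rises and falls per list are those of the TMM scale. They were not all kept on library totals alone, as the sums of 50 and 32 rises show. Of 5 tested Fc gamma receptor and ITAM chain genes 4 rose, among them Fcgr3 by 0.95, the inhibitory receptor Fcgr2b by 1.03 and the common gamma chain Fcer1g by 0.67. All 4 C-type lectin genes that use Syk and Card9 rose (3 on library totals alone, where Clec7a was not called), Clec4n (Dectin-2) by 4.02, Clec4e (Mincle) by 2.27 and Clec4d by 1.81. Of 9 ITIM receptor genes 4 rose and 4 fell. Clec12a fell by 1.38, and Siglece rose by 0.85 and Cd300a by 0.47.

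Among 6 tested genes of Src family kinases and their regulators 4 rose, including Src by 2.55 and Pag1 by 0.40, the last not called on library totals. Of 4 Syk and Tec family genes 2 rose and 1 fell, with Tec at 0.48 and Bmx at -0.80. Adaptor genes gave 6 rises and 1 fall among 11, with Sh3bp2 at 0.89, Shc1 at 0.50 and Skap2 at -0.38. Of 5 phospholipase C and protein kinase C genes, Prkcd rose by 0.41 and Prkcb and Prkca fell, by 0.54 and 1.99. The partners of Card9 rose while Card9 fell: Bcl10 by 1.06 and Malt1 by 1.66, and in that list of 7 tested genes 4 rose and 2 fell, Card10 by 0.69.

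Exchange factor and small GTPase genes gave 4 rises and 4 falls among 9, with the rises of Vav2 and Vav3 not called on library totals alone. Rhog rose by 0.68, and the actin regulator Was and the Rac effector Pak1 fell by 0.75 and 1.06. Of 13 phosphoinositide 3-kinase and Akt genes 6 rose and 3 fell, with Pik3ap1 (the adaptor BCAP) at 2.70 and Akt2 at 0.58, while the regulatory subunit genes Pik3r1, Pik3r2 and Pik3r6 fell, by 0.39, 1.36 and 0.21. Lipid phosphatase genes gave 2 rises and 3 falls among 6. Inpp5e fell by 0.91 and Inpp4b by 1.51. Of 9 protein tyrosine phosphatase genes 5 rose and 3 fell, with Ptprj at 1.46 and Ptpn22 at -1.67. In the list of Dok adaptors and Cbl ligases 4 of 8 rose and 1 fell, with Sh2b2 at 2.34, the ligase gene Cblb at 1.95 and Dok2 at -0.82. At 6 h against 0 h the 96 genes gave 47 rises and 23 falls (39 and 27 on library totals alone), and from 3 to 6 h 22 rises and 28 falls (34 and 21).

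For each gene the pair of genes with the most similar course was named, by Pearson r of log2 CPM over the 12 Ics libraries, which share 3 times. Of these 18 names, 7 were also found with CPM over totals outside haemoglobin and mitochondrial genes, and 5 of these are given. Card9 was most like Got2 (r = 0.992), Inpp5d like Stk38 (r = 0.987) and Ptpn6 like Emd (r = 0.996). Pik3cd was most like Parg (r = 0.800) and L3mbtl3 (r = 0.788).

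Across tissues, levels were read in the 25 libraries with markers that match their label (8 neutrophil, 7 monocyte, 6 blood, 4 skin; IVIG and PBS together). Card9 and Fgr had the largest differences between blood and neutrophils, and all 9 genes had their lowest median in skin, except that Fgr was lower in blood on totals without haemoglobin and mitochondrial genes. Summed neutrophil markers were 78711 to 186949 CPM in neutrophil libraries, 1258 to 22775 in monocyte, 223 to 847 in blood and 14.2 to 35.4 in skin libraries. Summed monocyte markers were 3206 to 5249.9 CPM in monocyte and 1924 to 2836 CPM in neutrophil libraries, so both cell preparations held RNA of either list. Blood held 1603 to 3245 CPM of 5 B cell markers, 193 to 714 of 5 T cell markers and 7695 to 15043 of 5 platelet markers, and skin 545 to 1003 of 5 mast cell markers. The part of these cells in the differences below was not tested. The titles carry a series name and a number. The 6 matched blood libraries were all of series S3 and the 4 skin libraries all of S5, while the neutrophil libraries were 1 of S2, 6 of S3 and 1 of S5 and the monocyte libraries 1, 3 and 3; the 4 of high mitochondrial share were the S5 and S2 ones. The labels do not say what a series is, and tissue and series cannot be told apart where they go together. Series and number were read from the deposited names, which are doubtful as said above. Of the series and number pairs, 8 recurred over 17 of the 25 libraries, 2 of these with both treatments, so a number is not shown to be 1 animal; the libraries were fitted as unrelated.

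**Figure D3:**
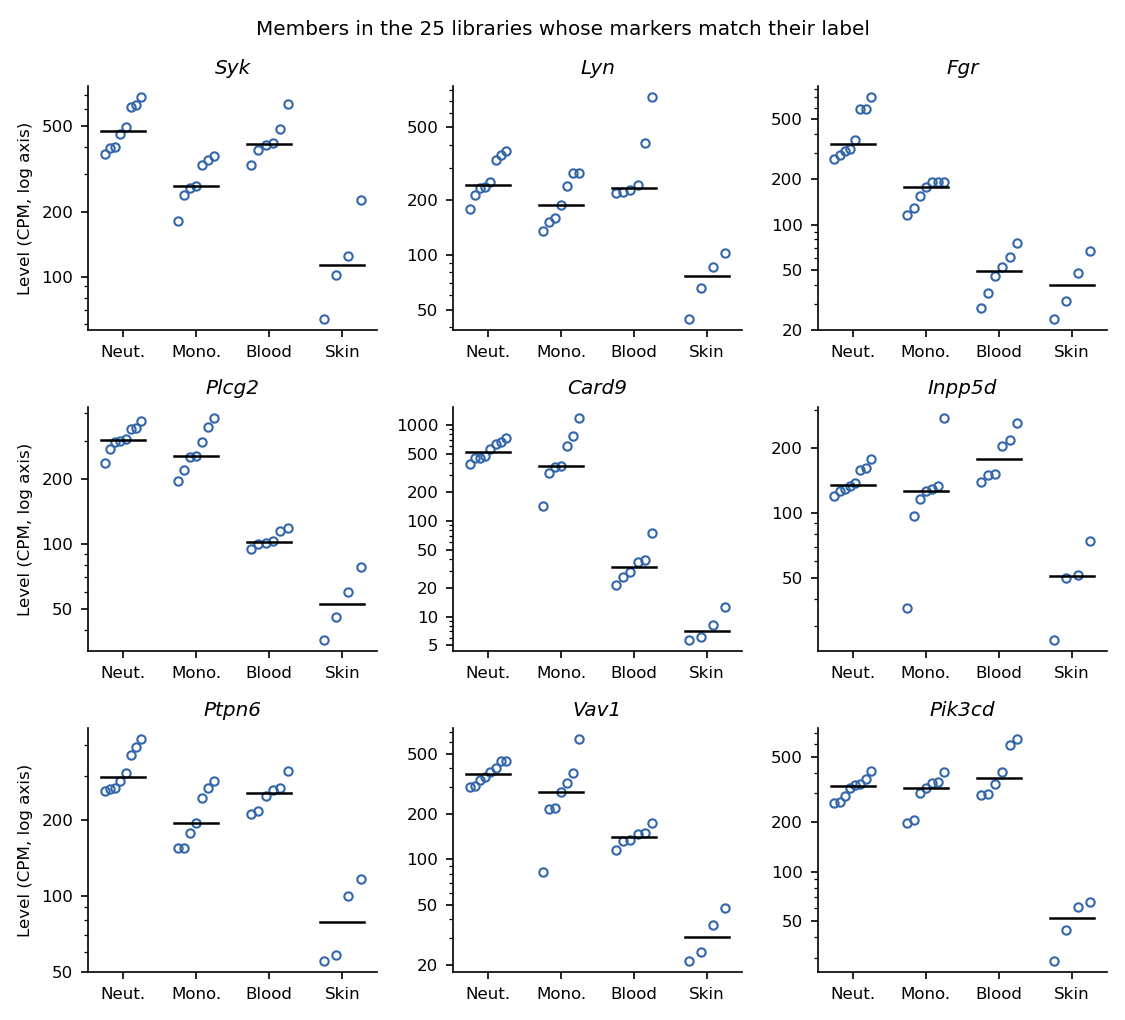
Level of each gene (CPM on the TMM scale of the tissue fit, log axes) in neutrophil (Neut.), monocyte (Mono.), blood and skin libraries with markers that match the label; circles are libraries and lines are medians. The skin median lies lowest for every gene on this scale, with Card9 at 5.65 to 12.6 CPM.

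Between neutrophil and monocyte libraries 3 genes rose in neutrophils (Fgr, Syk, Ptpn6) and 6 did not pass, where 27.3% of 18047 genes passed (2772 up, 2157 down). Fgr was 273 at the lowest, 342 at the median and 704 at the highest CPM in neutrophil libraries and 117 at the lowest, 177 at the median and 194 at the highest CPM in monocyte libraries, without overlap, which held for 10.4% of all genes tested. It was higher by 1.37 ± 0.255 (SE, n = 8 and 7, adjusted p = 2.06e-04, edgeR). Within a library, Fgr was 1.32 to 1.90 times Lyn in neutrophil and 0.633 to 1.27 times Lyn in monocyte libraries. Syk was 373 at the lowest, 478 at the median and 683 at the highest CPM in neutrophil and 182 at the lowest, 264 at the median and 365 at the highest CPM in monocyte libraries, a difference of 0.83 ± 0.223 (adjusted p = 0.00615, edgeR). Ptpn6 differed by 0.60 ± 0.186 (adjusted p = 0.0175, edgeR), and its levels overlapped.

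Only the Fgr call held on the scale of totals without haemoglobin and mitochondrial genes (0.85); there Syk was 0.32 and Ptpn6 0.09, neither called, Lyn, Plcg2, Card9, Inpp5d, Vav1 and Pik3cd turned negative, and of all genes 1638 rose and 4832 fell, with a median of -0.44. Without the 4 monocyte libraries of high mitochondrial share, Syk (0.56, adjusted p = 0.146) and Ptpn6 (0.29, adjusted p = 0.351) were not called, and with all 34 libraries by label none of the 9 genes was. With the title series as covariate the 3 calls were left (Fgr 1.35, Syk 0.83, Ptpn6 0.56). Within series S3 (6 neutrophil and 3 monocyte libraries) Fgr was higher by 0.98 (adjusted p = 0.0129, edgeR), Vav1 by 0.54 (adjusted p = 0.0358, edgeR), and Syk (0.44, adjusted p = 0.120) and Ptpn6 (0.19, adjusted p = 0.459) were not called. With the title number as a block none of the 9 genes was called (Fgr 0.82, adjusted p = 0.130, edgeR). Card9 spread widest in monocyte libraries, from 143 to 1174 CPM, with 314 to 600.0 CPM in the 3 of low mitochondrial share and 143 to 1174 CPM in the other 4. Its difference from neutrophils was 0.03 ± 0.318 (adjusted p = 0.982, edgeR; interval of 2 SE either side, -0.61 to 0.66). For Pik3cd this interval was -0.33 to 0.50, for Inpp5d -0.40 to 0.66 and for Plcg2 -0.18 to 0.48, so differences of those sizes remain possible.

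Against neutrophils, blood had lower levels of 4 genes and 5 did not pass, where 42.8% of genes passed (3793 up, 3925 down; 4701 up and 3165 down with RLE scaling). Card9 was 21.3 at the lowest, 32.9 at the median and 73.8 at the highest CPM in blood, below every neutrophil library, and 33.7% of all genes tested had no overlap in this comparison. Card9 fell by 3.85 ± 0.393 (SE, n = 6 and 8, adjusted p = 6.30e-09, edgeR). Fgr was 28.2 to 75.4 CPM and fell by 3.11 ± 0.294 (adjusted p = 1.67e-09, edgeR). The ratio of Fgr to Lyn in blood was 0.0481 to 0.345. Plcg2 fell by 1.55 ± 0.181 and Vav1 by 1.39 ± 0.283, also without overlap. The genes that did not pass were Syk at -0.19 ± 0.231, Lyn at 0.34 ± 0.271, Inpp5d at 0.39 ± 0.276, Ptpn6 at -0.33 ± 0.194 and Pik3cd at 0.40 ± 0.216. Pik3cd was called higher in blood with RLE scaling (0.67, adjusted p = 0.0107), and Ptpn6 lower (-0.47) without the high mitochondrial monocyte libraries, without monocyte PBS replicate 3 (-0.46) and without blood PBS replicate 5 (-0.53). Lyn turned to -0.16 without blood IVIG replicate 1. With all 34 libraries by label 1 of the 4 calls was left, Fgr. Within series S3 (6 libraries each) the 4 were called, Card9 at -3.93 and Fgr at -2.90, and Inpp5d was called higher in blood (0.41, adjusted p = 0.0288, edgeR).

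The relatives Zap70 and Plcg1, known from T cells, were higher in blood. Per kilobase, Zap70 was 9.26 to 29.8 CPM in blood and 0 to 0.0562 in neutrophil libraries, and Plcg1 7.80 to 17.6 and 0.184 to 0.530. On the log2 scale Zap70 was higher in blood by 9.61 and Plcg1 by 4.96, both called; with all 34 libraries by label Zap70 (1.75) and Plcg1 (1.78) were not. The size of the Zap70 difference rests on neutrophil levels near 0. The B and T cell markers given above were found in the same blood libraries; their part was not tested. Over the 103 pathway genes 35 rose and 43 fell in blood; all 6 Fc gamma receptor and ITAM chain genes fell, among them Tyrobp by 3.26, and so did all 9 ITIM receptor genes, led by Clec4a2 at -5.24.

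In skin all 9 genes fell against neutrophils, where 60.2% of genes passed (6351 up, 4521 down; 7959 and 3380 on totals without haemoglobin and mitochondrial genes), and against monocytes, where 53.1% passed (5801 up, 3784 down). Card9 was at 5.65 to 12.6 CPM in the 4 skin libraries and fell by 6.06 ± 0.527 against neutrophils (SE, n = 4 and 8, adjusted p = 4.21e-10) and fell by 6.04 ± 0.528 against monocytes (adjusted p = 9.20e-10, both edgeR). Vav1 fell by 3.52 ± 0.372 and Fgr by 3.34 ± 0.352 against neutrophils. The smallest fall was that of Inpp5d, 1.501 ± 0.336. Against neutrophils no skin library reached the neutrophil range for any of the 9 genes, and 63.3% of all genes tested had no overlap there; against monocytes 7 genes did not overlap, Syk and Inpp5d did, and 37.1% of all genes had none. The pan-leukocyte gene Ptprc was 146 to 373 CPM in skin and 439 to 1349 CPM in neutrophil libraries, so this marker was lower as well. Within series S5, the changes against the 3 monocyte libraries ran from -6.63 for Card9 to -1.01 for Syk. Syk was not called there (adjusted p = 0.0807, edgeR). Against the single neutrophil library of S5 they ran from -5.84 for Card9 to -1.68 for Inpp5d, and only these sizes are given. With all 34 libraries by label 7 of the 9 calls were left against neutrophils and 4 against monocytes. For the fits by label and within a series, here and for blood above, the share of all genes called is not set beside the counts. Such counts show only which calls were kept. Of the 103 pathway genes 24 rose and 50 fell against neutrophils, with Zap70 (5.98), Plcg1 (3.70) and Card14 (4.92) among those that rose; with all 34 libraries Zap70 (0.40) and Plcg1 (1.87) were not called.

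**Figure D4:**
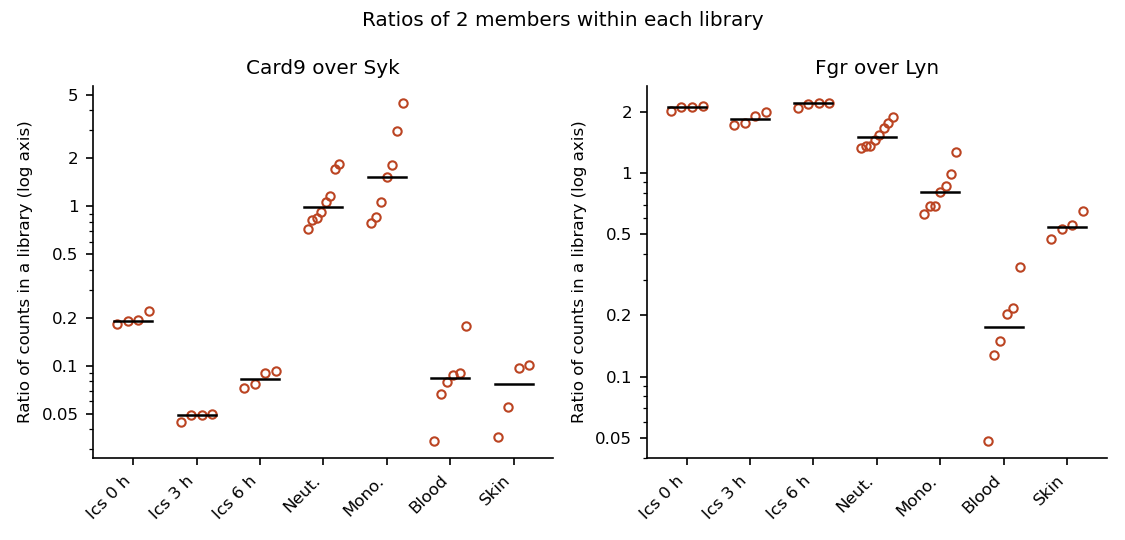
Ratio of counts of Card9 to Syk and of Fgr to Lyn in each library (log axes), over the Ics times and the libraries whose markers match their label (Neut., neutrophil; Mono., monocyte); circles are libraries and lines are medians. Card9 to Syk has a median of 0.192 at Ics 0 h, 0.0490 at 3 h and 0.991 in neutrophil libraries.

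Set beside these libraries on CPM over totals without haemoglobin and mitochondrial genes, the unstimulated Ics libraries had the highest Syk (922 to 1007 CPM against 353 to 515 in neutrophil libraries), Fgr (785 to 847 against 260 to 502) and Inpp5d (307 to 353 against 105 to 133). Ptpn6 was highest there as well, at 401 to 460 CPM against 227 to 320 in neutrophil libraries. Lyn and Plcg2 had their highest median there, with overlap with blood for Lyn and with monocyte libraries for Plcg2. Card9 was lower in the unstimulated Ics libraries, 182 to 203 CPM against 337 to 696 in neutrophil libraries, and so was Vav1, 162 to 175 against 252 to 425. No test was made, since the experiment and the tissue differ together and cannot be told apart.

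Between IVIG and PBS, libraries were grouped by label, so the fits mix tissues. Markers matched the label in 6 of 10 blood, 8 of 10 neutrophil, 7 of 8 monocyte and 4 of 6 skin libraries. In the fits so labelled, 0 of the 9 genes passed in blood, neutrophils, monocytes or skin. There 0% of genes passed in each (11339, 14033, 14415 and 16171 genes tested). At an unadjusted p under 0.05 there were 81, 73, 286 and 157 genes by edgeR, and DESeq2 called 1, 0, 3 and 1. In blood the changes ran from -0.58 ± 0.825 for Fgr to 0.46 ± 0.645 for Lyn, and in neutrophils from -0.07 ± 0.440 for Vav1 to 0.38 ± 0.366 for Pik3cd. In monocytes they ran from -0.44 ± 0.291 for Fgr to 0.74 ± 0.570 for Card9, and in skin from -1.42 ± 0.499 for Fgr to -0.16 ± 0.759 for Ptpn6 (SE, groups of 3 to 5 libraries). In the libraries labelled skin, Fgr was 31.6, 23.7 and 36.6 CPM with IVIG and 125, 51.5 and 69.8 CPM with PBS, without overlap, as for 3.96% of all genes tested (unadjusted p = 0.0257 and adjusted p = 0.99997, edgeR). Of these, PBS replicate 1 (125 CPM) and IVIG replicate 3 (36.6 CPM) had blood markers, with haemoglobin at 96.8 and 96.2% of counts.

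Card9 in monocytes was 0.74 with all libraries and -0.75 without those of high mitochondrial share. Without libraries whose markers go against the label, 5 genes were called in blood and 4 in skin, none of them among the 9, and the Fgr change in skin was -1.11 (adjusted p = 0.324, edgeR, 2 against 2 libraries). The direction of a change turned under at least 1 alternative for 9 of the 9 genes in blood, 7 in neutrophils, 7 in monocytes and 4 in skin, and 0 were called under any alternative. A missed limit here does not show that IVIG leaves these genes unchanged.

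**Figure D5:**
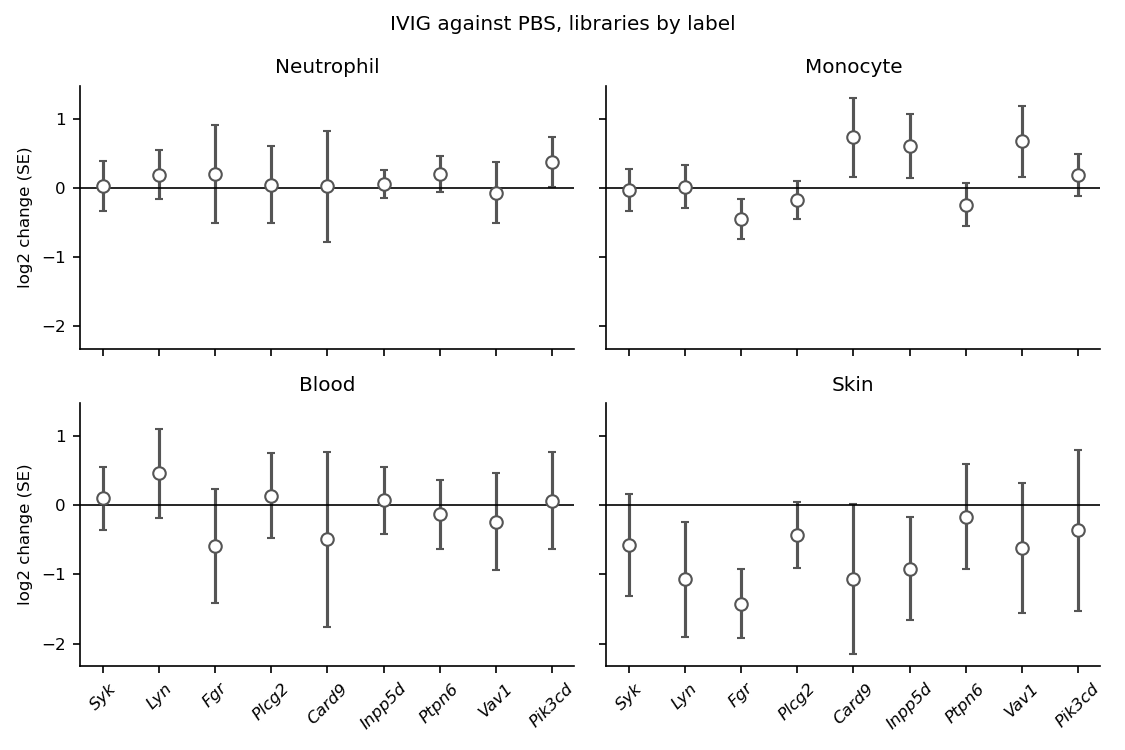
log2 change of each gene with IVIG against PBS in the 4 tissues, with libraries grouped by their deposited labels (edgeR, bars are SE). No gene passed adjusted p under 0.05, and the lowest point is Fgr in skin at -1.42.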

How the data were processed

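RNA-seq of 46 mouse libraries was used. Per the submitters' processing notes, reads were quantified with kallisto 0.46.1 on GRCm38, and the authors deposited 1 table of estimated counts (length-scaled, not whole) for 46264 genes. These expected counts were rounded to whole numbers. All 46 columns were matched to samples by the deposited descriptions. Fits used edgeR 4.0.16 (quasi-likelihood F test, TMM, filterByExpr with a minimum count of 10, Benjamini-Hochberg limit 0.05) in R 4.3.3; DESeq2 1.42.0 and other settings were alternatives. The Ics times were fitted together. Tissues were fitted on the 25 libraries with markers that match their label, and IVIG against PBS within each tissue by label. The treatment field of the labels disagreed with the condition field and was not used.

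The genes and lists were chosen with earlier results of these data known. Named were the 9 genes, their relatives, up to 3 genes of each list by smallest p, and for each gene its 2 most correlated genes; some of the genes this names are not reported here. Levels are CPM on the TMM scale; this scale was chosen after values were seen, and levels, outlying libraries and likeness depend on it. The scripts were tested on simulated data. For IVIG against PBS, 8-fold changes were recovered in 52% of cases in blood, 74% in neutrophils, 8% in monocytes and 0% in skin. Recovery of 2-fold changes was 36% for neutrophils against monocytes and 94% for Ics 3 h against 0 h. Totals per library ran from 18965431 to 43176537 counts. Same-numbered Ics libraries (m1 to m4 in the titles) had deviations that correlated over 0.1 in 12 of 12 cases on the TMM scale (lowest 0.1001) and in 11 of 12 on totals without haemoglobin and mitochondrial genes (lowest 0.0952); libraries of other numbers reached at most 0.0322. Gene positions and merged exon lengths came from GENCODE vM21. Intervals printed are 2 SE either side.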

Additional observations from a re-analysis of the deposited data

Results flagged for a closer look

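Of 63 groups of 4 to 8 libraries tested over the 9 genes, 4 held a library far from the rest by Dixon's criterion; chance gives about 1 in 20. Lyn in blood was 732 CPM in IVIG replicate 1, with the next library at 408. Card9 in blood was 73.8 CPM in PBS replicate 4, with the next at 38.8. Inpp5d in monocytes was 275 CPM in IVIG replicate 2, with the next at 134. Vav1 at Ics 3 h was 233 CPM in replicate 3, with the next at 194. On totals without haemoglobin and mitochondrial genes 2 stood apart, Card9 in the same blood library (65.0 CPM) and Inpp5d in Ics 6 h replicate 1 (341 CPM, next 390.2), so 1 was found on both scales. No cause was tested.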

How the results depend on the processing

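Over all alternatives 1768 values of single genes kept direction and call, 45 lost and 8 gained a call, and 44 turned direction; for IVIG these count the lowest and highest gene of each comparison alone, and over all 9 genes 9 turned in blood, 7 in neutrophils, 7 in monocytes and 4 in skin; the causes were not tested. In the Ics experiment, library totals alone turned Plcg2 (-0.10) and Vav1 (-0.085) at 6 h against 0 h. The fit with a replicate block, as a paired analysis, called 8297, 9151 and 6354 genes at 3 h against 0 h, 6 h against 0 h and 6 h against 3 h, and changed no call among the 9 genes. With the title number as a replicate block, 1859 genes were called for neutrophils against monocytes (Plcg2 -0.17) and 5437 for skin against neutrophils; within S3 neutrophils against monocytes gave Lyn -0.083, Plcg2 -0.11 and Pik3cd -0.14, and within S5 skin against neutrophils called 4122 genes. For neutrophils against monocytes, DESeq2 and RLE scaling each gave Card9 -0.085; totals without haemoglobin and mitochondrial genes gave Lyn -0.12, Plcg2 -0.34, Card9 -0.43, Inpp5d -0.35, Vav1 -0.16 and Pik3cd -0.41; all 34 libraries by label gave 1402 genes called, Plcg2 -0.15, Card9 -0.48 and Vav1 -0.11; and leaving out the high mitochondrial monocyte libraries gave Plcg2 -0.068 and Pik3cd -0.12. For blood against neutrophils, DESeq2 and RLE scaling each gave Syk 0.086, and all 34 libraries gave 4659 genes called, Lyn -0.16 and Pik3cd -0.15. For IVIG against PBS, DESeq2 called 1 gene in blood, 3 in monocytes and 1 in skin, leaving out libraries with markers against the label gave 5 in blood and 4 in skin, the title series as covariate gave Vav1 0.11 in neutrophils, and leaving out the high mitochondrial libraries gave Card9 -0.75 in monocytes. Leaving out each replicate in turn gave, for neutrophils against monocytes, Card9 -0.15 to 0.35 and Pik3cd -0.055 to 0.17; for blood against neutrophils, Lyn -0.16 to 0.44; and for IVIG, Lyn -0.19 to 0.75 and Fgr -1.13 to 0.64 in blood, Vav1 -0.30 to 0.12 and Pik3cd -0.0145 to 0.51 in neutrophils, and Ptpn6 -1.32 to 0.24 in skin. The settings using the mitochondrial limit, the title series or number in the tissue fits, library totals alone, and totals without haemoglobin and mitochondrial genes were added after seeing the data. Blood libraries, with 2078767 to 3240452 counts outside haemoglobin and mitochondrial genes, limit what could be detected there.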
